A study of Bos taurus with 2 samples.

Results

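The collagen genes of cattle were described here in bone, from CpG methylation at their ends and along their bodies. Members were chosen by name alone, as protein-coding genes with a symbol of COL, a number, A and a number on chromosomes 1 to 29, and 42 of the 20280 protein-coding genes on these chromosomes met the rule. The rule was set with earlier results of these data known. COL4A5 and COL4A6, the other two such genes of the annotation, lie on the X chromosome and were left out, and COL6A4 was not analysed here. The study set DNA methylation beside histone marks mapped from human to cattle, and its bone data are 2 whole-genome bisulfite sequencing (WGBS) libraries. Bone_1 and Bone_2 are both labelled as bone of female Holstein cattle, with no treatment, age or skeletal site given. They form 1 group, so no conditions were compared. The labels do not say whether the samples came from 1 or 2 animals, so each spread is that between these samples and may be technical.

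Collagens are extracellular proteins whose chains wind into a triple helix. Fibrillar collagens form the ropes of bone, skin and cartilage, network collagens form sheets such as the basement membrane, FACIT collagens sit on the surface of fibrils, and further classes make beaded filaments, anchoring fibrils or proteins that span the cell membrane. Type I collagen, made by osteoblasts, is the main protein of bone matrix, whereas type II belongs to cartilage and type X to the hypertrophic cartilage that bone replaces. In mammals most CpG sites are methylated, CpG-dense promoters are usually unmethylated, and methylation of a promoter is no direct measure of the gene's product.

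In WGBS, bisulfite converts cytosines that carry no methyl group, and every read that spans a CpG records the cytosine there as methylated or not, which is 1 call. The level of a region is the percent of its calls that were methylated, with all CpG sites pooled. On chromosomes 1 to 29, Bone_1 held 445684877 calls and Bone_2 held 389385549 over 26052483 CpG sites, or 17.1 and 14.9 calls per site, and the level was 72.4% in Bone_1 and 59.0% in Bone_2. The gene table at hand gives no strand, so a gene's start could not be told from its other end. Each gene was therefore read at its CpG-richer end, the end of the pair with more CpG sites in the window from 1000 bp outside to 500 bp inside the gene, then at its CpG-poorer end and along its body. This choice used the sequence and no methylation value. COL4A1 with COL4A2 and COL4A4 with COL4A3 are textbook head-to-head pairs that start from a shared promoter, and in all 4 genes the CpG-richer end was the one that faces its partner. Other neighbours went against the choice. COL3A1 with COL5A2 and COL9A1 with COL19A1 are known to lie tail to tail, and in these 4 genes too the CpG-richer end faced the neighbour, so there it is the far end and not the start. COL6A5 and COL6A6 are known to run in the same direction, but had their CpG-richer ends on opposite sides. The CpG-richer end is therefore given as what it is, and not as the promoter. Values needed at least 20 calls in each sample. Intervals are 95% Wilson intervals and cover counting error only, because 1 read can give several calls and copies of 1 molecule could not be told apart by an identifier.

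The CpG-richer ends of the collagen genes fell into a group of low methylation and a group about as methylated as the gene bodies, with fewer in between. The level was under 20% in both samples at 21 of 41 measured ends, or 51.2%, where 53.9% of all 19736 measured genes met the same limit, so the collagen share was near that of genes in general. A further 11 ends were over 50% in both samples and 9 lay between these limits. Among the 11 were COL3A1, COL5A2, COL9A1 and COL19A1, whose CpG-richer ends are not their starts by the known order. COL23A1 and COL26A1 were also among them, and held a window under 20% near the other end. So was COL6A6, and by the known direction either it or COL6A5 was read at its far end. The 11 are therefore not a count of methylated starts. The median end was 17.1% in Bone_1 and 18.0% in Bone_2, or 17.6% ± 0.65 (SD, n = 2), beside medians of 10.5% and 15.4% over all genes. In a window from 500 bp outside to 500 bp inside, the collagen median was 9.09%, and 18 of 40 members moved by more than the spread between the samples. The lowest ends, by the mean of both samples, were those of COL14A1, COL25A1, COL2A1, COL8A1 and COL4A1, and the highest were those of COL9A1, COL6A6, COL9A3, COL23A1 and COL5A2. The widest interval of a measured end was that of COL5A2 in Bone_1, from 70.0% to 86.7% over 88 calls.

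Whether an end was methylated went with the number of its CpG sites. Of the 29 members with 40 or more CpG sites there, 20 were under 20% in both samples, with medians of 7.97% in Bone_1 and 11.6% in Bone_2, and 75.5% of all genes with as many sites met the same limit. Of the 12 measured members with fewer sites, only COL11A1 was under 20% in both, and the medians were 75.9% and 63.3%, while 3.42% of all such genes met the limit. Across the 41 ends, Pearson's r between the number of CpG sites and the mean level was −0.67 and Spearman's rho was −0.77, beside −0.71 and −0.73 over all genes. These are descriptions, since the points share both libraries and the CpG sites also set how many calls an end receives. Of the 12 members with fewer sites, COL3A1, COL5A2, COL9A1 and COL19A1 were read at ends that are not their starts by the known order. Their CpG-poorer ends, on the start side by that order, were not low either where measured. COL3A1 was at 73.9% in Bone_1 and 46.8% in Bone_2 there, over 4 CpG sites and 23 calls in Bone_1. COL9A1 was at 75.6% and 55.4% there and COL19A1 at 69.6% and 67.9%, while COL5A2 had too few calls in Bone_1. COL23A1, also of the 12, held a window under 20% near its other end. COL6A6 is another of the 12, and by the known direction either it or COL6A5 was read at its far end. For these genes the number of CpG sites and the end that was read could not be told apart. Some CpG-dense ends were exceptions. The windows of COL6A1, COL6A3 and COL26A1 held 55, 47 and 54 CpG sites and were methylated, and those of COL6A2, COL8A2 and COL9A2 held 103, 108 and 94 and were at intermediate levels. COL6A5, COL7A1 and COL16A1 lay nearer to the limit, with at most 27.3% in either sample.

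**Figure D1:**
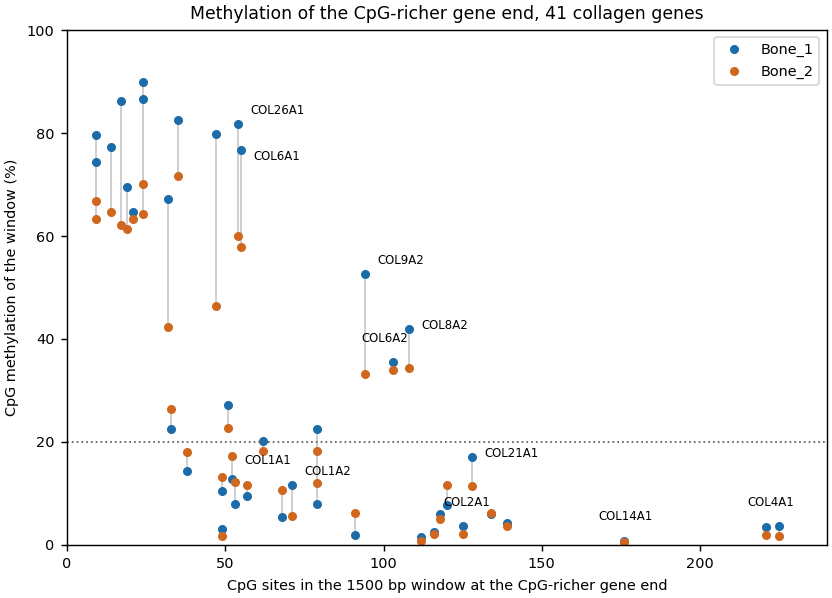
Number of CpG sites in the 1500 bp window at the CpG-richer gene end (x axis) against the CpG methylation of that window in percent (y axis) for 41 collagen genes. Each gene is a pair of points, Bone_1 in blue and Bone_2 in orange, joined by a grey line, and the dotted line marks 20%; most ends with many CpG sites lie under the line, while those of COL26A1, COL6A1, COL9A2, COL8A2 and COL6A2 lie over it.

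Among the 11 fibrillar collagens, 8 ends were under 20% in both samples, beside 53.9% of all genes. COL1A1 encodes the chain of type I collagen that is present in a pair per molecule, and its end was at 12.7% in Bone_1 (10.9 to 14.8%, 1164 calls) and 17.3% in Bone_2 (13.9 to 21.2%, 417 calls). COL1A2, the other chain of type I, was at 11.6% (9.55 to 14.0%) and 5.49% (3.94 to 7.61%). Both type I genes were thus low in both samples, COL1A1 lower in Bone_1 and COL1A2 lower in Bone_2. The CpG-richer end of COL2A1, the cartilage fibril gene, was lower still, at 2.46% (1.86 to 3.25%) and 2.07% (1.05 to 4.04%), with no difference between the samples past the threshold (adjusted p = 0.901, Fisher's exact test with Benjamini-Hochberg adjustment over all genes). Only 19.1% of all genes had a lower mean at their CpG-richer end than COL2A1, against 52.7% for COL1A1 and 40.7% for COL1A2. In the window of 500 bp on either side, the mean of COL1A1 was 6.60% in place of 15.0%.

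The remaining fibrillar genes did not split by CpG density alone. COL11A1 and COL24A1, with 38 and 33 CpG sites at this end, were low or near the limit. COL5A1, COL5A3, COL11A2 and COL27A1, chains that regulate fibril width or occur in cartilage, had CpG-dense ends under 12% in both samples, and COL11A1, which pairs with type II collagen, was at 14.3% in Bone_1 and 18.0% in Bone_2. The neighbours COL3A1 and COL5A2, of type III and type V collagen in soft tissue and bone, had 9 CpG sites each at this end. COL3A1 was at 74.5% and 63.4%, and COL5A2 at 79.5% and 66.8%. Both were therefore methylated at windows with few sites, which by the known tail-to-tail order lie at the far ends of these genes. COL24A1, a minor fibrillar gene of developing bone, was at 22.5% and 26.5%, and its first window of 1000 bp inside the end was at 5.27% and 2.71%. The CpG-poorer end of COL11A2 held 83 CpG sites and was also low, at 13.0% in Bone_1 and 24.6% in Bone_2.

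The network collagens had the lowest median end of the classes with at least 4 members, 4.73% in Bone_1 and 3.95% in Bone_2. Of their 6 measured ends 5 were under 20% in both samples, beside 53.9% of all genes. COL4A1 and COL4A2, the basement membrane chains found in nearly all tissues, share their promoter region, and their overlapping windows held 225 and 221 CpG sites. COL4A1 was at 3.55% in Bone_1 and 1.68% in Bone_2, and COL4A2 at 3.41% and 1.82%. As most of these reads are counted for both genes, the values are not independent. In the second pair, whose chains are known from the kidney and the inner ear, COL4A3 was at 5.91% and 6.09% and COL4A4 at 7.78% and 11.6%. COL8A1 was at 3.13% and 1.71%, whereas COL8A2, its partner in the cornea's Descemet membrane, was at 42.0% and 34.4% over 108 CpG sites. In the window of 500 bp on either side its mean was 19.3% in place of 38.2%. COL10A1, the marker of hypertrophic chondrocytes, had 8 CpG sites at its CpG-richer end and only 19 calls there in Bone_1, under the minimum. Both its end windows lie within NT5DC1, the gene in which COL10A1 is nested.

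FACIT collagens were mixed, with 4 of 10 ends under 20% in both samples, beside 53.9% of all genes. COL14A1, which binds fibrils in tendon and skin, had the lowest end of all members, at 0.720% in Bone_1 (0.429 to 1.21%) and 0.515% in Bone_2 (0.200 to 1.32%). COL12A1, a fibril-binding collagen of bone and tendon, was at 7.97% and 12.2%, COL22A1 at 5.45% and 10.6%, and COL21A1 at 17.1% and 11.5%. COL16A1 lay at the limit, with 20.1% and 18.2%. The 3 genes of type IX collagen, which coats the type II fibrils of cartilage, were not in the low group at this end. COL9A1 was the highest member by the mean of both samples, at 90.0% and 70.2%, while in Bone_2 COL6A6 was higher, at 71.7%. This end of COL9A1 faces COL19A1 and so is not its start by the known order. COL9A3 was at 86.6% and 64.3%, and COL9A2 at 52.6% and 33.2%. The CpG-richer window of COL9A3 overlapped the gene TCFL5 and its CpG-poorer window OGFR. Which of them holds the start of COL9A3 could not be read from the gene table. COL19A1, also read at an end that is not its start by the known order, was at 69.5% and 61.4%, and COL20A1 at 67.1% and 42.4%. For COL9A2 the methylation lay outside the gene: the window of 1000 bp outside the end was at 72.8% and 49.2%, and the first one inside, with 98 CpG sites, at 7.73% and 5.51%.

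None of the 6 genes of beaded filament collagens and their relative COL28A1 was under 20% in both samples, where 53.9% of all genes were. The class medians were 77.1% in Bone_1 and 52.2% in Bone_2. COL6A6 and COL28A1 had 35 and 14 CpG sites at this end, and 3.42% of all genes with under 40 were low in both. By the known direction either COL6A5 or COL6A6 was read at its far end, so the count is not one of starts. Type VI collagen forms microfilaments around cells in muscle, cartilage and bone. COL6A1 was at 76.8% and 57.9%, COL6A3 at 79.8% and 46.5%, COL6A6 at 82.6% and 71.7%, and COL28A1 at 77.4% and 64.7%. COL6A5 was lower, at 27.3% and 22.6%, and COL6A2 was at 35.5% and 34.0%, with a mean of 15.5% in place of 34.7% in the window of 500 bp on either side. The first 1000 bp inside the end of COL6A2 were at 15.4% and 14.9%, and it was the only gene of this class with a low window near an end.

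The other classes are small. COL15A1 and COL18A1, the multiplexins of basement membranes, were low at 7.82% and 18.2% and at 6.04% and 4.98%, in Bone_1 and Bone_2. Of the transmembrane genes, COL25A1 was at 1.51% and 0.739% and COL13A1, known from the neuromuscular junction, at 10.5% and 13.3%. COL17A1, of the hemidesmosomes of skin, was at 64.6% and 63.3%, and COL23A1 was at 86.2% and 62.1%. COL7A1, which forms the anchoring fibrils under the epidermis, was at 22.5% and 12.0%, and COL26A1 was at 81.8% and 60.1%. The epithelial genes COL7A1 and COL17A1 were thus both outside the group that was low in both samples, but in the window of 500 bp on either side the mean of COL7A1 was 4.24% in place of 17.3%. Of the bone matrix collagens 4 of 7 measured ends were in that group, and of the cartilage collagens 4 of 7. Over all genes the share was 53.9%. The others included COL3A1 and COL5A2 of the bone list and COL9A1 of the cartilage list, whose ends are not starts by the known order. The CpG-poorer ends of COL3A1 and COL9A1 were not under 20% either, and that of COL5A2 had too few calls. COL24A1 and COL9A2 held a window under 20% just inside the end. The counts therefore do not compare the lists at the starts of their genes.

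All 21 ends under 20% in both samples also held a window of 1000 bp, with at least 5 CpG sites, under 20% in both. Of the 20 measured genes whose end was not, COL6A2, COL7A1, COL9A2, COL16A1 and COL24A1 had such a window within 2000 bp of the CpG-richer end. COL23A1 and COL26A1 had one near the other end only. The window of COL23A1 held 116 CpG sites and was at 1.27% in Bone_1 and 1.13% in Bone_2, and that of COL26A1 nearest to the end held 106 and was at 2.63% and 5.88%. In these 2 genes the low window thus lay at the end opposite to the CpG-richer one, starting 1.501 kb inside that end in COL23A1 and 0.303 kb inside it in COL26A1, and the high levels given for them are those of the other end. The remaining 13 had none within 2000 bp of either end. Over all genes, 66.1% had a low window near an end, and 28 of 42 collagen genes, or 66.7%, did. Among genes of at least 50 kb, 74.1% of 27 collagen genes and 80.1% of all did.

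The CpG-poorer ends were methylated in nearly every gene, with medians of 78.2% in Bone_1 and 59.6% in Bone_2 over 40 measured members, beside 81.7% and 63.4% over all genes. None was under 20% in both samples, where 3.29% of all genes were. The lowest were those of COL11A2, given above, and COL26A1, at 39.2% and 32.8%. The samples differed at 18 of 40 by the 2 limits described below, an adjusted p under 0.05 and at least 20 percentage points, where 30.9% of all genes did.

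Most gene bodies of the family were methylated, with 38 of 42 over 50% in both samples, beside 14616 of 19798 over all genes. The others were COL1A1, COL5A3, COL8A2 and COL9A2. The median body was at 76.7% in Bone_1 and 59.2% in Bone_2, or 68.0% ± 12.4 (SD, n = 2), beside 72.2% and 59.0% over all 19798 measured genes. Collagen genes are long, with a median of 109 kb against 18.6 kb, and genes of at least 50 kb had medians of 76.4% and 62.7%. Body levels kept nearly one order in both samples (Pearson's r = 0.92 and Spearman's rho = 0.84 over 42 genes that share both libraries, as a description). The widest interval of a body was that of COL10A1 in Bone_2, from 74.6% to 79.6%, so for most members the difference between the samples was far wider than counting error.

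The 5 lowest bodies, by the mean of both samples, were those of COL1A1, COL9A2, COL5A3, COL8A2 and COL1A2. COL1A1 was at 49.4% in Bone_1 (48.4 to 50.4%) and 37.2% in Bone_2 (35.7 to 38.8%), or 43.3% ± 8.62 (SD, n = 2), and 12.8% of all genes had a lower mean. COL1A2 was at 65.0% (63.5 to 66.5%) and 52.0% (50.8 to 53.2%), and COL2A1, the next in order, at 67.3% and 52.8%. Both type I genes were thus among the 5 least methylated collagen bodies, and COL1A1 is a short gene of 16.8 kb. Without the 2000 bp at both ends, the mean of COL1A1 was 56.8%, over those of COL8A2 and COL5A3 at 51.4% and 53.9%, and that of COL9A2 was 65.6% in place of 46.8% and not among the 5 lowest, so the order of the lowest bodies depends on their ends. COL9A2 was at 50.6% and 42.9%, COL5A3 at 47.7% and 46.3%, and COL8A2 at 60.4% and 43.3%. In COL5A3 the samples lay closest together of all members.

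The 5 highest bodies were those of COL10A1, COL17A1, COL5A1, COL14A1 and COL6A1. COL10A1 was at 92.1% in Bone_1 (90.2 to 93.7%) and 77.2% in Bone_2 (74.6 to 79.6%), or 84.7% ± 10.5 (SD, n = 2), with 64 CpG sites and 924 and 1044 calls. It was the highest member in both samples, and 99.5% of all genes had a lower mean. COL17A1 followed at 85.5% and 67.7%, COL5A1 at 83.1% and 65.5%, COL14A1 at 81.0% and 65.9%, and COL6A1 at 83.2% and 63.0%. The order of bodies did not follow the order of ends: COL14A1 had the lowest end and a body among the highest, while COL6A1 was high at both.

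**Figure D2:**
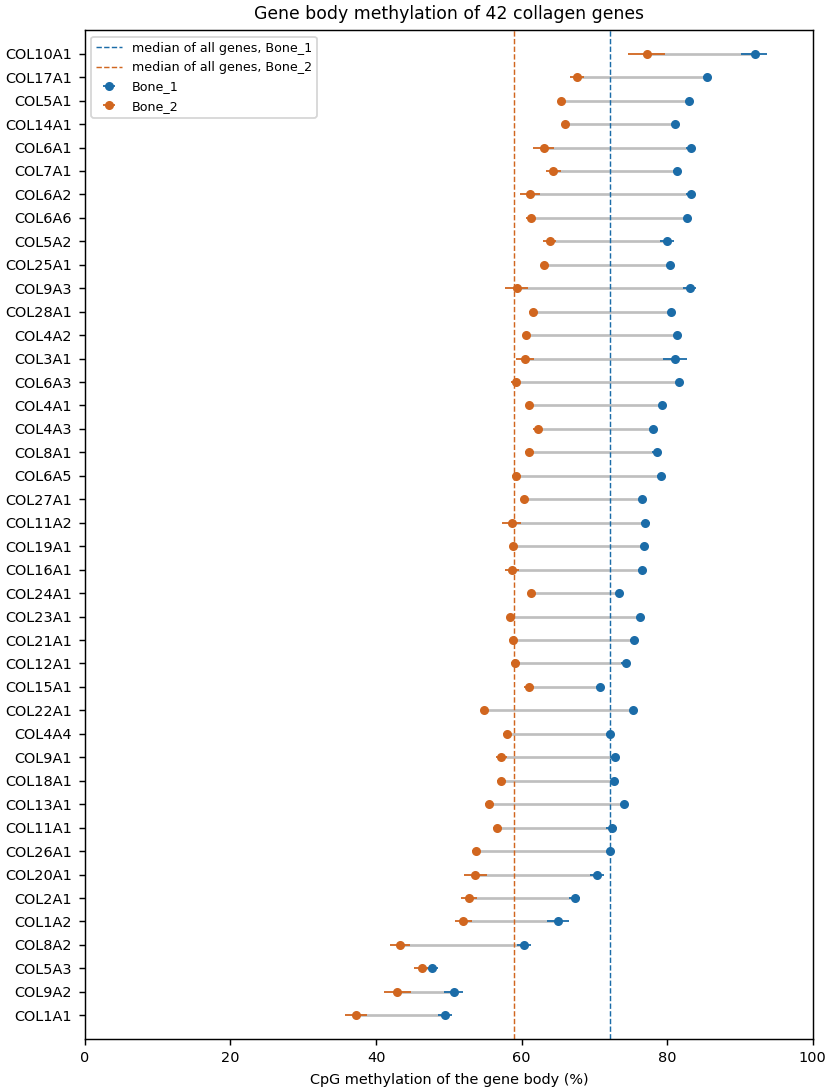
CpG methylation of the gene body in percent (x axis) for 42 collagen genes (y axis, ordered by the mean of both samples), with Bone_1 in blue and Bone_2 in orange and 95% Wilson intervals as horizontal bars. Dashed lines mark the medians of all genes, at 72.2% and 59.0%; COL1A1, COL9A2, COL5A3 and COL8A2 lie to the left of the others, COL10A1 lies farthest to the right, and in every gene Bone_1 lies to the right of Bone_2.

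Along COL1A1, the low methylation lay in the first windows of 1000 bp, counted from the lower-coordinate end, which is its CpG-richer end. The first window held 51 CpG sites and was at 2.20% in Bone_1 and 3.09% in Bone_2. The next was at 15.3% and 22.6% and the third at 16.7% and 16.9%, so the first and the third were the only windows of the gene under 20% in both samples. Even so only 6 of its 17 windows were over 50% in both samples, and the median window was at 70.1% in Bone_1 and 46.3% in Bone_2. All windows after the third were over 50% in Bone_1, the lowest at 50.4%, so the count of 6 was set by Bone_2. In COL1A2 the first window was at 14.3% and 10.6%, and 20 of 30 measured windows were over 50% in both. COL2A1 had a broader trough, with 3 successive windows under 6% in both samples and 24 of 30 over 50%. All 4 measured windows of COL10A1 were over 50%, between 92.8% and 94.3% in Bone_1 and between 73.0% and 82.4% in Bone_2.

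**Figure D3:**
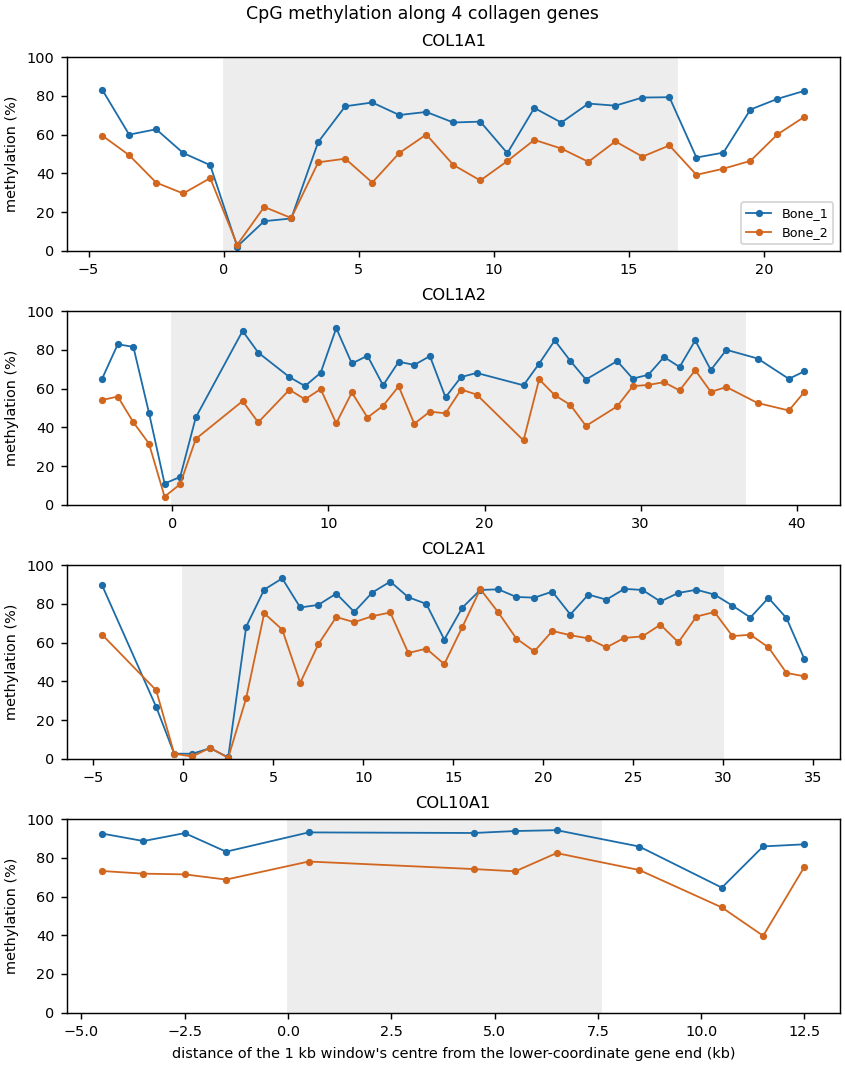
CpG methylation in percent (y axis) of windows of 1000 bp along COL1A1, COL1A2, COL2A1 and COL10A1, by distance of the window's centre from the lower-coordinate gene end in kb (x axis); the grey area is the gene, blue is Bone_1, orange is Bone_2, and lines join the windows with at least 5 CpG sites and 20 calls in each sample. Levels fall to a trough at the lower-coordinate end of the first 3 genes, with 2.20% and 3.09% in the first window of COL1A1, and the 4 measured windows of COL10A1 are all over 50%, with part of the gene, its upper-coordinate end and the window just outside its lower-coordinate end not measured.

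Inside the genes, at least 2000 bp from both ends, 16 of 4323 windows of 1000 bp were under 20% in both samples. That is 0.370%, beside 0.700% over all genes, and the windows lay in 13 genes. Such a window was held by 31.0% of the collagen genes and 14.3% of all genes, and among genes of at least 50 kb by 29.6% of 27 collagen genes and 29.7% of all, so at like lengths the shares were close. With windows of 500 bp there were 53 of 5558, or 0.954%, beside 1.41% over all genes. The following positions are those of the deposited counts, for which the submitters' processing notes name the ARS-UCD1.2 build. COL8A2 had the most, 3 windows, of which 2 adjoin at chr3:109709719-109711690 with 85 CpG sites at 2.33% in Bone_1 and 3.42% in Bone_2. The other, at chr3:109715728-109716651, held 41 CpG sites at 0.462% and 1.61%. These stretches, 13.0 and 19.0 kb from its lower-coordinate end, lay 9.38 and 4.38 kb from its upper-coordinate end. They were thus almost unmethylated while the CpG-richer end itself was not. Where COL8A2 starts could not be read from the gene table.

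COL9A1 was the only other member with more than 1 such window. One at chr9:9364267-9365146 held 49 CpG sites at 14.8% in Bone_1 and 8.21% in Bone_2, and one at chr9:9366267-9367155 held 89 at 10.9% and 9.75%. They lie 63.0 and 65.0 kb from the lower-coordinate end, the CpG-richer one. By the mean of both samples that end was the most methylated of the measured CpG-richer ends. By the known order of COL9A1 and COL19A1, it is not the start. COL9A1 is known to have an alternative start inside the gene, and whether these windows lie at it could not be read from the gene table. In COL3A1 a window at chr2:7410472-7411017 with 8 CpG sites had no methylated call among 31 in Bone_1 and was at 6.60% in Bone_2. It lay 3.63 kb from the gene's upper-coordinate end, which is the start by the known tail-to-tail order. In COL5A3 a window with 43 CpG sites at chr7:14548642-14549633 was at 13.9% and 13.6%. COL5A2, COL6A1, COL6A3, COL6A5, COL6A6, COL9A3, COL10A1, COL17A1, COL20A1 and COL28A1 had no measured low window near an end or inside, which is 23.8% of the collagen genes and 30.1% of all genes. Among genes of at least 50 kb the order was reversed, with 18.5% of 27 collagen genes and 12.3% of all.

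The samples differed along the bodies of nearly all collagen genes, in the direction of the whole genome. Bone_1 was higher in 42 of 42 bodies, in 16103 of 19798 bodies of all genes and in 4906 of 5191 of those of at least 50 kb, with a median difference of 17.2 percentage points, beside 12.0 over all genes and 13.8 over genes of at least 50 kb. By Fisher's exact test with Benjamini-Hochberg adjustment, 41 of 42 bodies had an adjusted p under 0.05, but so did 91% of all genes, and these p-values compare 2 libraries and are too small because reads give several calls. COL5A3 was the exception, with a difference of 1.37 points (adjusted p = 0.0553 by Fisher's exact test). A difference of at least 20 points as well was seen in 8 of 42, or 19.0%, where 14.7% of all genes met both limits. Among genes of at least 50 kb, 4 of 27 collagen genes and 292 of 5191 of all genes did. The 8 bodies were those of COL9A3, COL6A3, COL6A2, COL6A6, COL4A2, COL3A1, COL22A1 and COL6A1, with differences from 23.7 points down to 20.2. The type VI genes made up 4 of these 8 and type I genes none, and no body reached 30 points. Without the 2000 bp at both ends 11 bodies passed, 7 of these 8 among them and COL6A1 not, where 16.8% of all genes did. Tested against the odds ratio of all calls, 1.83, in place of equality, 39 bodies passed and 34 of them were higher in Bone_1 than that ratio gives, whereas 81% of all genes passed and 45.4% of those were higher in Bone_1.

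At the CpG-richer ends the median difference was small, 1.58 points, beside 0.24 over all genes. Bone_1 was higher at 30 of 41 ends and Bone_2 at 11, where Bone_1 was higher at 10629 of 19736 over all genes. At the ends of members with under 40 CpG sites the median difference was 11.9 points, beside 17.3 over all such genes. COL6A3, COL9A3, COL20A1, COL23A1 and COL26A1 passed both limits, 5 of 41, where 14.9% of all genes did, and all 5 were higher in Bone_1. In the window of 500 bp on either side 6 passed, 4 of these 5 among them and COL26A1 not, where 13.9% of all genes passed. Their ends were methylated ones, and COL6A3 had the largest difference, 79.8% against 46.5%. By the adjusted p alone 24 passed, where 63.4% of all genes did, and 18 of the 24 were higher in Bone_1, where 55.6% of all genes that passed were. The other 6 were higher in Bone_2, or 6 of 41 tested, where 28.2% of all genes tested passed in that direction. Those higher in Bone_2 were COL1A1, COL4A4, COL12A1, COL15A1, COL22A1 and COL27A1, all at low levels, and COL15A1 had the largest difference among them, from 7.82% to 18.2%. Against the odds ratio of all calls, 21 ends passed, where 61.6% of all genes did, and 6 of the 21 were higher in Bone_1 than that ratio gives, where 23.7% of all genes that passed were. The samples also differed in depth: at the CpG-richer ends of members, calls per CpG site had a median of 14.8 in Bone_1 and 7.22 in Bone_2, beside 17.6 and 8.54 over all genes, and along the bodies of members 17.5 and 12.2. The part of depth in the differences was not tested.

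**Figure D4:**
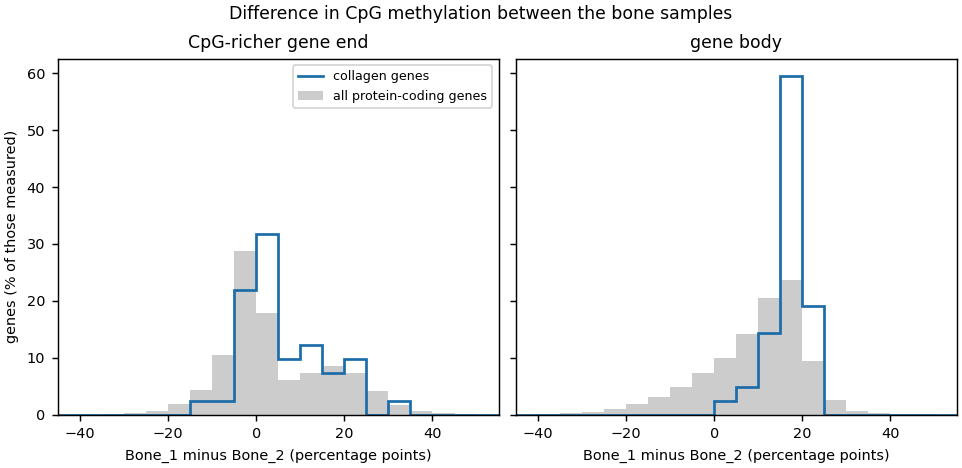
Difference in CpG methylation, Bone_1 minus Bone_2, in percentage points (x axis, bins of 5 points) against the percent of measured genes (y axis), at the CpG-richer end (left) and along the gene body (right). Grey bars are all protein-coding genes and the blue line is the collagen genes; 59.5% of the collagen bodies lie between 15 and 20 points, and no collagen body lies under 0.

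Genes that make and bind collagen were read in the same way. Of 17 genes for enzymes and chaperones that modify and fold the chains, 15 ends were under 20% in both samples. Over all genes 53.9% were, and 75.5% of those with 40 or more CpG sites at this end. None of the 17 passed both limits, where 14.9% of all genes did, but only 683 of 13835 with 40 or more CpG sites. These 17 ends had a median of 93 CpG sites. SERPINH1, the collagen chaperone, was at 7.45% in Bone_1 and 4.72% in Bone_2. The exceptions were P3H2 and P4HA3, a prolyl 3- and a prolyl 4-hydroxylase gene, at 4.37% and 23.2% and at 6.12% and 23.3%. Of 12 genes that cut or cross-link collagen 9 ends were low in both samples, among them BMP1, which removes the propeptide, at 1.03% and 4.10%, and none passed both limits. Of 9 receptor genes 4 were low in both, and DDR2, a receptor for fibrillar collagens, and GP6, the platelet receptor, passed both limits, DDR2 at 60.9% and 23.6% and GP6 at 69.4% and 41.9%.

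The label of the tissue was set beside genes that mark its cells, with the limit that methylation is not expression and that the share of each cell type is unknown. Of 7 measured osteoblast and osteocyte genes, SP7, an osteoblast transcription factor, was low at its CpG-richer end in both samples, at 2.04% and 10.2%. BGLAP, which encodes osteocalcin, was at 87.3% and 56.5%, and RUNX2 at 87.0% and 60.0%. RUNX2 had 15 CpG sites at this end, so its level is that of a CpG-poor window. Of 7 chondrocyte genes 5 were low in both, among them ACAN, of cartilage proteoglycan, at 2.24% and 2.46%, and of 8 blood genes LCP1 and CORO1A were. Over all genes 53.9% were low in both, with 75.5% of those with 40 or more CpG sites and 3.42% of those with fewer, and the 3 marker lists had medians of 29, 85 and 33.5 CpG sites. The marker lists therefore do not tell which cells gave the DNA.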

How the data were processed

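Two-strand CpG reports of 2 bone WGBS libraries were used. The authors trimmed reads, mapped them by Bismark and, after duplicate removal, deposited counts, the methylated and the unmethylated calls of every CpG cytosine, not normalized. The submitters' processing notes name FastQC 0.11.5, Trim Galore 0.4.5, Bowtie2, Bismark 0.19.0 and the ARS-UCD1.2 build, whereas the study's methods name another build and Bismark version. Incomplete conversion would raise levels, and the added lambda DNA was not analysed here.

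Strands were merged into CpG sites. Genes came from RefSeq's table of ARS-UCD2.0, and none of its coordinates are given. As a check of positions, in 124 of 124 segments of 20 Mb with at least 100 gene ends, CpG density was highest within 200 bp of those ends. Promoters had been planned, from 1000 bp upstream to 500 bp downstream of the start, but the table has no strand, so the CpG-richer gene end was read in their place, and 385 genes with equal ends were left out there. Bodies were those of genes of at least 750 bp. Regions needed 20 calls in each sample.

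Fisher's exact test (two-sided) on the calls of both samples compared each region, with Benjamini-Hochberg adjustment over all genes, at an adjusted p under 0.05 and a difference of at least 20 percentage points. The test was tested on simulated data. Members, gene lists and classes were chosen with earlier results of these data known. Named were COL1A1, COL1A2, COL2A1 and COL10A1, the 5 lowest, 5 highest and 5 most different members, the paired and neighbouring genes, those with most low windows, those with too few calls and up to 4 genes of each other list. The remaining members were named after their values were seen. Tools were scipy 1.17.1, numpy 2.4.6, numba 0.67.0, pandas 2.3.3 and matplotlib 3.10.9 under Python 3.11.15.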

Additional observations from a re-analysis of the deposited data

How the results depend on the processing

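The median body level, 68.0%, lay between 67.8% and 69.7% under the alternatives that kept both samples. A minimum of 50 calls left out none of the 42 bodies and so could not move it. With 1 sample alone it was 59.2% or 76.7%, a change that is always smaller than the SD of both samples. The median end difference lay between 1.58 and 2.12 points. The share of CpG-richer ends under 20%, 53.7% as the mean of both samples, became 63.7% in a window of 500 bp on either side, 34.1% with a limit of 10%, 61.0% with a limit of 30% and 72.4% among members with at least 40 CpG sites, and ranged from 51.2% to 56.1% without either sample. The median end, 17.6%, became 9.09% in the shorter window, 18.4% with a minimum of 10 calls, 9.77% among members with at least 40 CpG sites and 19.2% with shared windows counted once, and ranged from 17.1% to 18.0% without either sample. The median body difference was 18.2 points without 2000 bp at both ends, taken from both because the start is unknown. Ends that differed numbered 5, and 24 by the adjusted p alone, 1 at 30 points (COL6A3, where 2.69% of all genes passed) and 21 against the odds ratio of all calls. Bodies that differed numbered 8, and 41, 0 and 39 in the same settings, with 1.28% of all genes at 30 points. In the shorter window 6 ends passed (13.9% of all genes) and COL26A1 was lost, and in trimmed bodies 11 passed (16.8% of all genes) and COL6A1 was lost. Low windows inside genes numbered 16, 53 with windows of 500 bp and 7 with a limit of 10%. The cause of these changes was not tested. The choices of at least 40 CpG sites, of at least 50 kb and of shared windows counted once were made after seeing the data. No paired analysis was possible because both samples belong to 1 group. With 2 samples and 1 tissue, no statement on bone as against other tissues can be made.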

Other observations

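Some genes of the collagen pathway had a body with a lower mean of both samples than COL1A1, at 43.3% the lowest collagen gene by whole bodies. COL1A1 was not the lowest without the 2000 bp at both ends. In Bone_2 alone LOX and P3H4 were over the 37.2% of COL1A1. LOX, the lysyl oxidase that cross-links fibrils, was at 20.6% in Bone_1 and 41.2% in Bone_2 along its body. PCOLCE, an enhancer of the protease that trims procollagen, was at 23.3% and 19.5%, although its CpG-richer end was at 65.1% and 56.8%. P3H4, of the lysyl hydroxylase complex, was at 33.3% and 41.2%. Among marker genes, SOST, the osteocyte gene for sclerostin, was at 20.9% and 25.8% along its body, SOX9 at 24.0% and 23.7% and COMP at 34.1% and 33.9%. In LOX, P3H4 and SOST the level was higher in Bone_2, against the direction of 42 of 42 collagen bodies and of 16103 of 19798 bodies of all genes. These genes were picked from fixed lists after their values were seen.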
